A study of Mus musculus with 3 samples.

Results

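RXRα and RARα binding was described at 9 genes of retinoid metabolism and transport, which are Cyp26a1, Cyp26b1, Dhrs3, Rdh10, Lrat, Rbp4, Crabp2, Aldh1a1 and Aldh1a2. They were taken by name from GENCODE release M1 and are 9 of 22367 protein-coding genes on the nuclear chromosomes of mouse build NCBI37 (mm9). For each gene, the window covered 10 kb on each side of the gene start, which is the 5′ end of the gene record, together with the gene body. Chromatin immunoprecipitation followed by sequencing (ChIP-seq) was done on livers of male wild type C57BL/6 mice 3 months old, with 1 library for RXRα, 1 for RARα and 1 of input chromatin. No allele or treatment differed between the libraries, and the number of livers behind each of them is not given in the sources used here. Because each antibody had 1 library, no difference had a replicate check, no test between libraries was made, and all intervals cover counting error only. Livers were ground whole, so each value mixes hepatocytes with the other cells of the liver.

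Retinol reaches cells on a plasma carrier and is stored as retinyl ester. It is oxidized to retinal and then to retinoic acid, which binds the retinoic acid receptors (RAR). A RAR pairs with a retinoid X receptor (RXR) on a response element, typically a direct repeat of a 6-base motif, and the enzymes that break retinoic acid down are long known targets of this pair. RXRα also pairs with many other nuclear receptors in the liver, so its binding is not limited to elements of the RARs.

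The RXRα and input tracks give the number of reads that cover each 32 bp bin, and the totals correspond to 9999939 reads for RXRα and 9999292 for input. For RXRα, this total is below the number of uniquely mapped reads that the study reports. For RARα, a list of 143280 peaks with a score from 5 to 382 was used, without a read track. The study reports a read depth for RARα, which did not enter the values given here. A RARα peak with a score greater than 20 is referred to as a filtered peak. An RXRα region is a set of bins in which RXRα reached at least 20 times the input, where the input was the larger of the bin and the genome mean of 0.603, and bins within 200 bp were joined. A RARα peak was co-localized with RXRα when it overlapped a region by at least 25% of the narrower of the pair.

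Filtered RARα peaks lay in the window of 8 of the 9 genes, against 57.9% of all protein-coding genes, and Crabp2 was the exception. RXRα regions lay in the window of 6 of the 9, against 47.9% of all genes, and were missing at Rdh10, Lrat and Crabp2. A co-localized filtered peak was found at Cyp26a1, Dhrs3 and Rbp4, which is 3 of 9 genes against 27.2% of all genes, a share near that background. Within 10 kb of the gene start alone, the counts were 8 genes for RARα against 52.2% of all genes, 5 for RXRα against 39.8% and 3 for co-localized peaks against 23.5%. With 9 genes and windows that lengthen with the gene, from 20001 bp at Cyp26a1, Rbp4 and Crabp2 to 90455 bp at Aldh1a2, no test of these counts was made. What differed among the 9 genes was where the proteins lay and how strong each signal was, and these are described gene by gene.

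**Figure D1:**
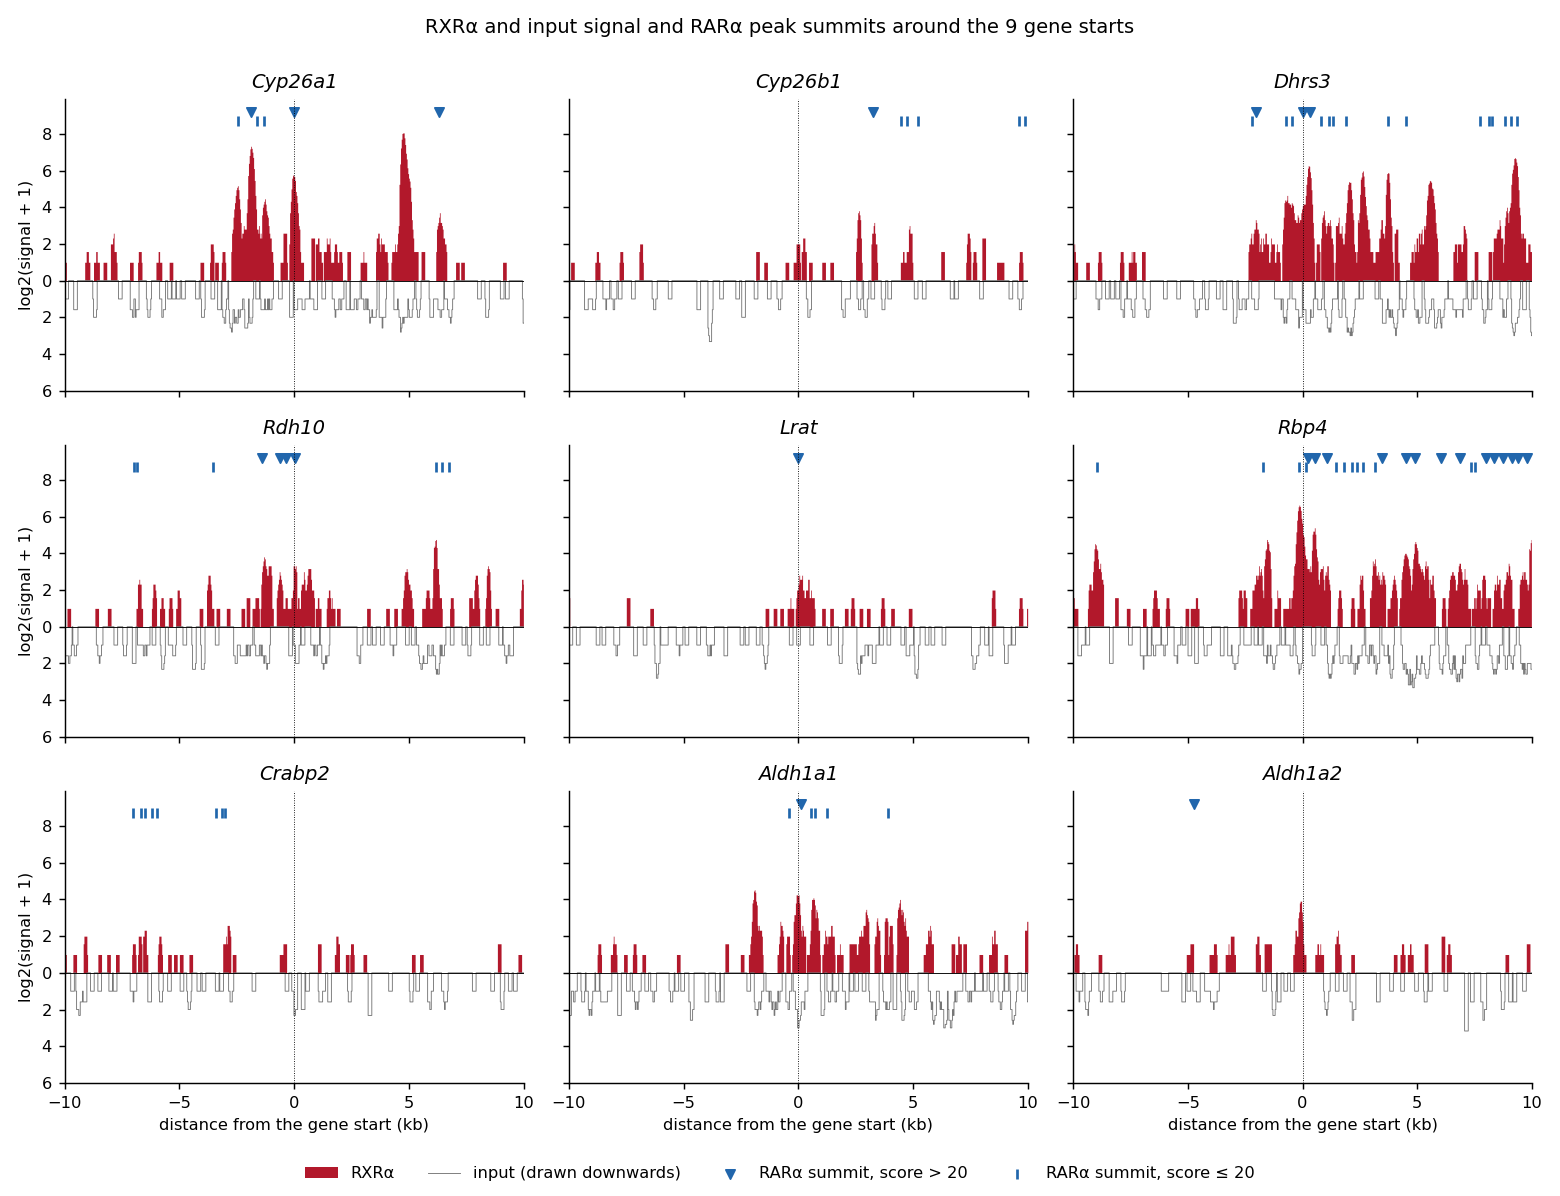
RXRα signal (red, upwards) and input signal (grey, drawn downwards), both as log2(signal + 1) per 32 bp bin, against the distance from the gene start in kb for the 9 genes; triangles mark RARα summits with a score greater than 20 and ticks those with a lower score. Cyp26a1 has separate RXRα peaks of up to 264 reads, Dhrs3 a row of them along the gene, and Rbp4 its highest one at the start with a run of RARα summits after it, while Crabp2 has few RXRα reads anywhere in the plot.

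Cyp26a1 (ENSMUSG00000024987.5, chr19:37772298-37776018, plus strand) encodes the cytochrome P450 that oxidizes retinoic acid and clears it from the cell. RXRα formed separate peaks on both sides of the gene and at its start. The sequences below carry these peaks and are shown because each holds a direct repeat of the 6-base motif at or near the bin with the most RXRα reads. They are given 5′ to 3′ on the plus strand of mm9, and capitals mark every match, on either strand, to AGGTCA or AGTTCA or GGGTCA or GGTTCA.

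Cyp26a1 upstream (chr19:37770341-37770491): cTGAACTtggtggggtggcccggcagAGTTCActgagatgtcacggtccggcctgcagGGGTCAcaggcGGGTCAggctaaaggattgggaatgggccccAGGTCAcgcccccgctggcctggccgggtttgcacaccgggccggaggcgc
Cyp26a1 downstream (chr19:37776965-37777115): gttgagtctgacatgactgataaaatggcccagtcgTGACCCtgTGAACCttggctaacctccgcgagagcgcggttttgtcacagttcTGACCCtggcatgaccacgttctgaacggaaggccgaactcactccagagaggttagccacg

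The upstream window is centered at -1882 bp from the gene start, on the bin where RXRα reached 159 reads and input 4, a ratio of 39.7. The summit of a RARα peak with a score of 24 lay 11 bp from the center of that bin. Over the whole RARα peak there were 218 reads for RXRα and 9 for input, a ratio of 24.2 (exact conditional 95% interval 12.5 to 53.7). The window holds 5 matches to the motif, and those in its middle repeat it in the same direction with 5 bases in between (DR5), the arrangement best known for RAR and RXR pairs, centered at -1891.

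At the gene start, RXRα reached 51 reads in a bin without input reads, 26 bp upstream, and a RARα peak with a score of 21 had its summit 3 bp from the center of that bin. This peak held 81 RXRα and 6 input reads, a ratio of 13.5 (5.94 to 37.9). A DR5 on the minus strand, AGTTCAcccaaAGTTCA (chr19:37772266-37772282), was centered 24 bp before the start. Both co-localized peaks thus had the same arrangement, with the RARα summit, the RXRα peak and a DR5 close together.

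The highest RXRα signal near any of the 9 genes was not at a RARα peak. It lay 4742 bp after the start, about 1 kb beyond the 3′ end of Cyp26a1, where RXRα reached 264 reads and input 3, a ratio of 88.0 (29.8 to 429). By RXRα reads this region ranked 37 of 42117 regions of the genome. The nearest RARα summit was 1585 bp away, with a score of 25 and an RXRα ratio of 2.57 (1.02 to 7.28). Of the 38 regions with at least as many RXRα reads, 7 overlapped no RARα peak of any score and 81.6% overlapped one. The downstream window holds a repeat with 2 bases in between (DR2) on the minus strand, centered at 4709, and another single match to the motif.

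Elsewhere upstream of Cyp26a1, RARα peaks with scores of 13, 12 and 7 lay at -2448, -1618 and -1313, all below the filter. RXRα enrichment at these peaks was 4.63, 8.40 and 6.60, where enrichment is the average RXRα signal of a peak relative to its average input signal or, if larger, the genome mean. Cyp26c1, the neighboring gene of the same family, had neither a filtered RARα peak nor an RXRα region within 10 kb of its start. Cyp26a1 was therefore covered by RXRα at 4 regions, of which 2 coincided with filtered RARα peaks, and over the gene body beyond 1 kb RXRα and input reads were near equal (23 and 22 reads).

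Cyp26b1 (ENSMUSG00000063415.5, chr6:84521938-84543740, minus strand), a related retinoic acid hydroxylase, did not share this arrangement. Its filtered RARα peak had a score of 48, against 25 for the highest at Cyp26a1, and lay in an intron 3255 bp after the start, but it held only 8 RXRα reads and 1 input read (ratio 8.0, interval 1.07 to 355). The other 6 RARα peaks had scores of 16 or less. RXRα passed the 20-fold threshold at 1 place, 10252 bp after the start in an intron, with 23 reads and no input read in the bin with the highest ratio. Crabp2 (ENSMUSG00000004885.5, chr3:87752588-87757298, plus strand), which binds retinoic acid in the cytoplasm and carries it to the RARs, had 8 RARα peaks with scores between 6 and 10, all of them 3028 to 7013 bp upstream. Within 1 kb of its start there were 3 RXRα reads (0.619 to 8.77) and 9 input reads (4.12 to 17.1), the lowest count of RXRα of the 9 genes and the only one below input.

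Dhrs3 (ENSMUSG00000066026.7, chr4:144482730-144518112, plus strand) encodes a reductase that turns retinal back into retinol. In a window of 45383 bp it had the most RXRα regions and RARα peaks of the 9 genes, 14 and 27, and most of them lay in introns. Filtered RARα peaks with scores of 37, 33 and 27 lay at -2035, at 5 and at 340 bp from the start, and the latter pair was co-localized with RXRα. The peak at 340 bp, in the untranslated part of an exon, held 95 reads for RXRα and 7 for input, a ratio of 13.6 (6.34 to 34.7). The peak with the highest score, at -2035, held 11 and 3 reads and did not overlap an RXRα region.

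The RXRα regions of Dhrs3 with the most reads in their highest bin were inside the gene and coincided with RARα peaks of low score or with none. The region with the most reads lay 20678 bp after the start, with 108 RXRα and 3 input reads in its highest bin, and the RARα peaks on it scored 12 and 11. A second region at 9254 bp reached 103 RXRα and 6 input reads, with RARα peaks that scored 13 and 12. At 2630 bp, RXRα reached 62 reads against 1 in input, and the nearest RARα summit was 740 bp away. Bins outside the regions do not enter this order. Such a bin 263 bp after the start, under the filtered RARα peak at 340 bp, had 76 RXRα and 4 input reads. The region on that peak, at 358 bp, was credited with 48 RXRα reads. In all, 9 of the 14 regions overlapped a RARα peak of any score and 2 overlapped a filtered one. The sequences of the region with the most reads and of the region with a DR5, which had no RARα peak, are shown for comparison with Cyp26a1, with capitals as above.

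Dhrs3 intron, most RXRα reads (chr4:144503333-144503483): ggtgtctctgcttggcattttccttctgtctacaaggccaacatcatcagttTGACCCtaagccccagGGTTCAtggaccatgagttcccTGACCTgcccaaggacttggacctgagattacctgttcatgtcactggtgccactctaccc
Dhrs3 intron, DR5 (chr4:144488197-144488347): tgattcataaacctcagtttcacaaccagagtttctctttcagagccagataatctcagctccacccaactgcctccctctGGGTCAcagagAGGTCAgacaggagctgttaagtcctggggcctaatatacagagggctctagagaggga

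The first window has 3 matches to the motif on both strands and no direct repeat with a spacing of 0 to 5 bases. The second window is centered 5542 bp after the start, where RXRα had 43 reads and input 2, and its DR5 was centered at 5556. The nearest RARα summit was 1027 bp away, so a DR5 was present at an RXRα peak without a listed RARα peak. Counted over the gene body beyond 1 kb from the start, Dhrs3 had 1258 reads for RXRα and 296 for input, a ratio of 4.25 (3.74 to 4.84). This was the highest ratio over a body among the 9 genes, of which the next was Cyp26b1 at 1.79 (1.27 to 2.56).

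Rdh10 (ENSMUSG00000025921.7, chr1:16095855-16123815, plus strand) encodes the enzyme that oxidizes retinol to retinal, the reverse of the step attributed to Dhrs3. Its highest RARα scores exceeded those of Dhrs3, and it had no RXRα region. Filtered peaks with scores of 60, 33, 69 and 31 lay at -1425, -620, -340 and 40 bp from the start and abutted each other over 2111 bp. RXRα enrichment at them was 2.68, 5.99, 2.11 and 2.59, and no bin in the window exceeded 14.9 times input. The peaks at -1425 and -620 lay 313 and 492 bp from the start of Rpl7, a ribosomal protein gene, and are nearer to it than to Rdh10. With those peaks set aside, Rdh10 retained filtered peaks with scores of 69 and 31.

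Rbp4 (ENSMUSG00000024990.6, chr19:38191110-38199811, minus strand) encodes the carrier that hepatocytes secrete to bring retinol into the plasma. It had the highest RARα scores and the highest RXRα count within 1 kb of the start of the 9 genes, but the signals did not run in parallel along the gene. Within 1 kb of the start, 4 RARα peaks with scores of 11, 12, 22 and 110 lay at -154, 136, 246 and 531 bp, and RXRα enrichment at them was 22.7, 43.1, 14.0 and 24.4. The peak with a score of 110 was co-localized with RXRα and held 54 RXRα reads and 2 input reads (ratio 27.0, interval 7.12 to 229). The bin with the most RXRα reads, 98 against 5 in input, was at -141 bp, where the RARα peak scored 11.

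Beyond 1 kb after the start of Rbp4, 20 RARα peaks followed through the gene and past its end, and 12 of them passed the filter. The highest had a score of 98, 4916 bp after the start in an intron, and held 60 RXRα and 27 input reads, a ratio of 2.22 (1.39 to 3.64). RXRα enrichment at these 20 peaks ranged from 0.0556 to 3.00 with a median of 1.91, and none was co-localized with RXRα. They belonged to a run of 26 abutting RARα peaks, 24 of them in the window, that extended over 10860 bp (chr19:38189281-38200140). By length this run ranked 29 of 26261 runs with a filtered peak, whose median length was 670 bp. Joining peaks that start at most 11 bp after the end of the previous one was a choice made after the list was examined.

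The window of the highest RXRα bin of Rbp4 is shown because it has no match to the 6-base motif. It is given on the minus strand, the strand of the gene.

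Rbp4 start (chr19:38199877-38200027): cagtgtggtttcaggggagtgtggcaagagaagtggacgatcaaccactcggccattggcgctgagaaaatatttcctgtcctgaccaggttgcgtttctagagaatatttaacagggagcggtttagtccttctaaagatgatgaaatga

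The lack of a match says only that these 6 letters do not occur in these 151 bases. Upstream of the start, a RARα peak with a score of 17 at -1724 and another with a score of 14 at -8974 overlapped RXRα regions. The latter lay 1514 bp from the start of Pde6c and was nearer to it.

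**Figure D2:**
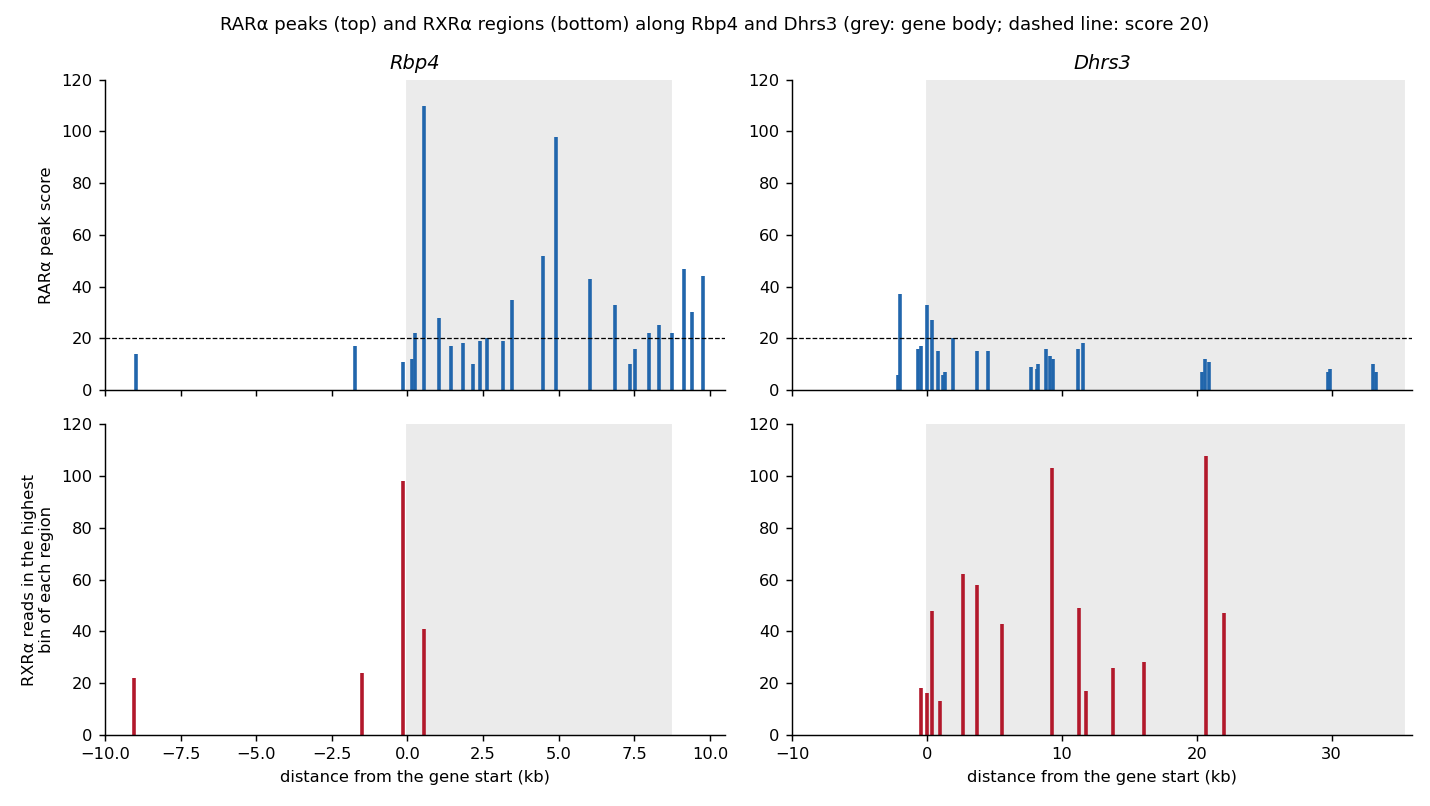
RARα peak scores (top row, blue) and RXRα reads in the highest bin of each RXRα region (bottom row, red) against the distance from the gene start in kb for Rbp4 and Dhrs3, with the gene body in grey and the score of 20 as a dashed line. More than 1 kb after the start, Rbp4 has RARα scores of up to 98 and no RXRα region, whereas Dhrs3 has RXRα regions of up to 108 reads and RARα scores of 20 or less.

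Lrat (ENSMUSG00000028003.6, chr3:82696501-82707895, minus strand) encodes the acyltransferase that esterifies retinol for storage, and in liver it is a marker of stellate cells. It had a single RARα peak in the window, with a score of 23 and the summit 10 bp upstream of the start. This peak held 10 RXRα reads and 1 input read (ratio of nearly 10, interval 1.42 to 434), and the highest bin within the window reached 9.96 times input, with 6 reads. In whole liver, fewer cells with a bound site and weaker binding per cell cannot be told apart.

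Aldh1a1 and Aldh1a2 encode dehydrogenases that oxidize retinal to retinoic acid. Aldh1a1 (ENSMUSG00000053279.6, chr19:20676451-20717952, plus strand) had filtered RARα peaks at 99 bp, in a coding exon, with a score of 48, and at 29219 bp, in an intron, with a score of 34. The peak in the intron held 132 reads for RXRα and 13 for input, a ratio of 10.2 (5.74 to 19.6), which was more RXRα reads than at any other RARα peak of the 9 genes except the upstream peak of Cyp26a1. It did not count as co-localized because no bin reached 20 times input. The 5 RXRα regions of Aldh1a1 lay elsewhere, at -1939, 653, 4429, 31981 and 39469 bp, with 15 to 38 RXRα reads in the bins of highest ratio, and 2 of them overlapped RARα peaks with scores of 10 or less. A repeat with 1 base in between (DR1) lay 31 bp from the summit of the RARα peak in the intron, and is shown with 20 bases on each side on the plus strand.

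Aldh1a1 intron, DR1 (chr19:20705633-20705645): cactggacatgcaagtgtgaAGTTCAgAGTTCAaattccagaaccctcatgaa

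Aldh1a2 (ENSMUSG00000013584.5, chr9:71063596-71144050, plus strand), the dehydrogenase best known from the embryo, had 4 RARα peaks and 1 RXRα region in the longest window. Its filtered RARα peak, with a score of 26, was 4731 bp upstream and held 3 RXRα and 4 input reads. RXRα reached 14 reads without an input read in a bin 92 bp upstream and a ratio of 23.2, a short way above the threshold. Over the gene body beyond 1 kb, RXRα reads were fewer than input reads at Aldh1a2 (126 and 286, ratio 0.441, interval 0.354 to 0.545) and at Lrat (19 and 47, ratio 0.404, interval 0.224 to 0.702). They were also fewer at Rdh10 (130 and 140) and Crabp2 (9 and 12), where the intervals of the ratio included 1.

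Reads within 1 kb of the gene start, obtained as the sum of the signal divided by the 5 bins that 1 read covers, allow all 9 genes to be compared at equal length. Rbp4 had 235 RXRα reads (exact Poisson 95% interval 206 to 267) and 13 input reads (6.92 to 22.2), and Dhrs3 had 204 (177 to 234) and 24 (15.4 to 35.7). Cyp26a1 followed with 95 RXRα reads (76.9 to 116) and 14 input reads, and Aldh1a1 with 67 (51.9 to 85.1) and 17. Rdh10 had 42 RXRα reads (30.3 to 56.8) and 9 input reads. At the other end, Aldh1a2 had 22 RXRα reads against 4, Lrat 20 against 3 and Cyp26b1 10 against 5.

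As a ratio of reads within 1 kb of the start, Rbp4 was highest at 18.1 (10.4 to 34.5), followed by Dhrs3 at 8.5 (5.55 to 13.6), Cyp26a1 at 6.79 (3.85 to 12.9), Lrat at 6.67 (1.98 to 35.0), Aldh1a2 at 5.50 (1.87 to 22.0), Rdh10 at 4.67 (2.24 to 10.9), Aldh1a1 at 3.94 (2.29 to 7.16), Cyp26b1 at 2.0 (0.623 to 7.46) and Crabp2 at 0.333 (0.0580 to 1.34). The intervals of neighbors in this order overlapped throughout, so the order is not resolved gene by gene. The interval of Rbp4 lay above those of Aldh1a1, Cyp26b1 and Crabp2, and those of Cyp26b1 and Crabp2 included 1. With the input held at no less than the genome mean, the median enrichment was 3.85 over the 9 genes and 1.37 over all genes, and Rbp4 stood at percentile 99.9 of all genes, Dhrs3 at 96.7 and Cyp26a1 at 94.6. The order depended on the width of the window. With 5 kb on each side, Rbp4 was no longer highest, and enrichment was 9.28 at Cyp26a1, 5.24 at Dhrs3 and 3.71 at Rbp4. With 250 bp on each side, it was 27.4 at Rbp4, 14.4 at Cyp26a1, 8.85 at Aldh1a2 and 7.63 at Dhrs3.

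**Figure D3:**
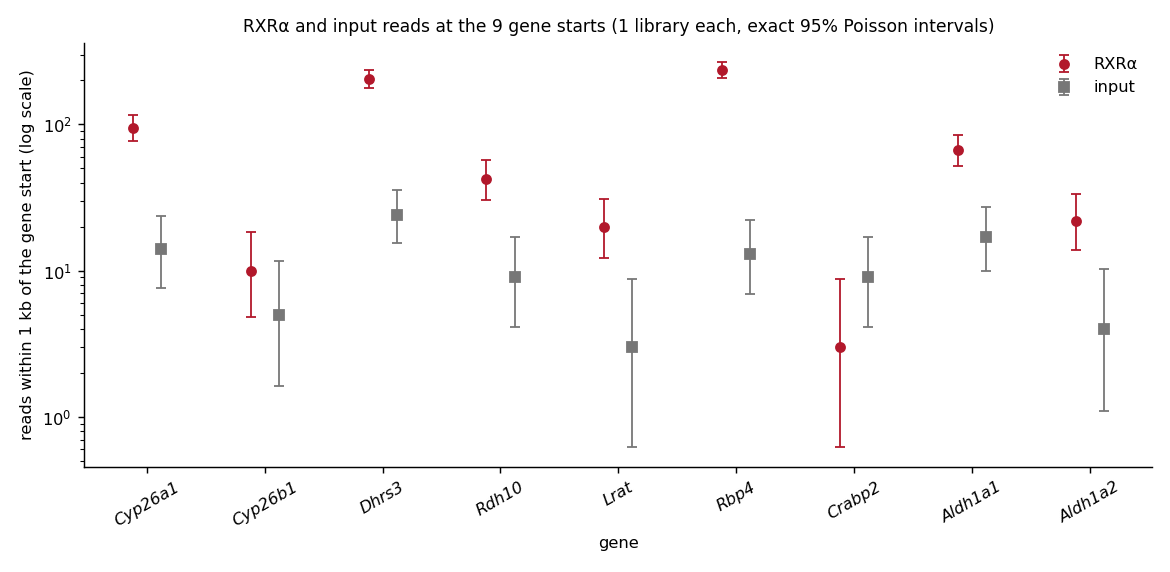
RXRα reads (red circles) and input reads (grey squares) within 1 kb of the start of each of the 9 genes, on a log scale, with exact 95% Poisson intervals for counting error and 1 library each. Rbp4 has 235 and Dhrs3 204 RXRα reads, while Crabp2 has 3, below its 9 input reads.

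Across the 9 windows there were 103 RARα peaks, of which 29 passed the filter and 21 were co-localized with RXRα. Of the 29 filtered peaks, 5 were co-localized (17.2%, against 32.2% of filtered peaks genome-wide), and of the 74 with a score of 20 or less, 16 were (21.6%, against 12.4% genome-wide). Peaks of low score thus made up 76.2% of the co-localized peaks at these genes and 56.3% of those genome-wide. At Dhrs3, 9 of the 11 co-localized peaks did not pass the filter. The median RXRα enrichment at the 29 filtered peaks was 2.79, against 4.16 over all filtered peaks. Rbp4 contributed 14 of them, and without Rbp4 the median over 15 peaks was 4.88 and 4 of the 15 were co-localized. Abutting peaks of 1 gene are not independent, so these shares describe the list and carry no test.

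**Figure D4:**
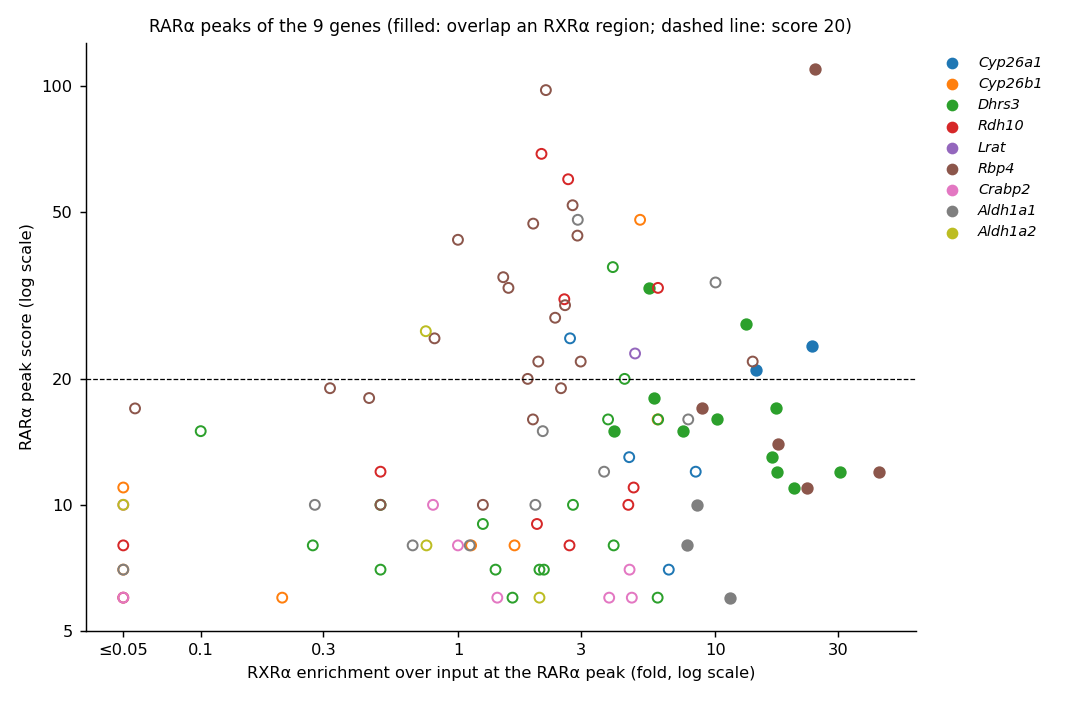
Score of each of the 103 RARα peaks near the 9 genes (log scale) against RXRα enrichment over input at the peak (fold, log scale; values of 0.05 or less are drawn at the left edge), colored by gene; filled points overlap an RXRα region and the dashed line is the score of 20. Peaks with scores of 43 to 98 range from 1.0 to 5.11 in enrichment, the Rbp4 peak with a score of 110 is at 24.4, and the other peaks with an enrichment from 13.1 to 43.1 have scores of 27 or less.

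Around the score threshold, the lowest filtered peaks were that at the start of Cyp26a1 (score 21, enrichment 14.4), 3 of Rbp4 (score 22, enrichment 2.05, 3.00 and 14.0) and that of Lrat (score 23, enrichment 4.88). Just below it were 1 peak of Dhrs3 at 1890 bp (score 20, enrichment 4.44) and 1 of Rbp4 at 2631 bp (score 20, enrichment 1.87). From the side of RXRα, the 9 windows held 29 regions, of which 17 overlapped a RARα peak of any score (58.6%, against 53.3% of all regions) and 5 a filtered one (17.2%, against 25.1%). The 12 regions that no RARα peak overlapped by the required 25% included the region of Cyp26a1 with the most reads and the only regions of Cyp26b1 and Aldh1a2. Also among them was the Cyp26a1 region at -1274, which met the edge of the RARα peak at -1313 with a score of 7. The median highest ratio was 32 over the 29 regions and 34.8 over all regions.

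Direct repeats with a spacing of 0 to 5 bases were searched on both strands within 100 bases of each summit or highest bin, with each repeat built from AGGTCA or AGTTCA or GGGTCA or GGTTCA. They were found at 3 of the 29 filtered RARα peaks, at Cyp26a1 and Aldh1a1, against 0.880% of all filtered peaks. Around the bins with the highest ratio over input, they were found at 3 of 29 regions, at Cyp26a1 and Dhrs3, against 3.90% of all regions and 0.349% of all gene starts. A DR5 was present at 2 of the 29 filtered peaks, both of Cyp26a1, against 0.0850% of all filtered peaks and 0.207% of all co-localized ones. Centered on the bin with the most RXRα reads, a setting chosen after seeing the data, the search found 4 of 29 regions of the same genes, against 4.21% of all regions, and the addition was the upstream DR5 of Cyp26a1. No direct repeat was found in the windows searched at Cyp26b1, Rdh10, Lrat, Rbp4 and Aldh1a2. Rdh10 and Lrat had no RXRα region, so only their filtered peaks were searched. Crabp2 had neither a filtered peak nor a region, so nothing was searched there. At least 1 match to the single 6-base motif occurred in 151 bases around 65.5% of the 29 regions, 60.5% of all regions and 21.7% of all gene starts.

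The starts also differed in base composition. In the 1 kb around the start, the ratio of observed to expected CpG was 0.957 at Rdh10 and 0.929 at Aldh1a2, at percentiles 96.0 and 94.2 of all genes, and 0.174 at Aldh1a1 and 0.247 at Cyp26b1, at percentiles 18.4 and 27.2. Cyp26a1, Dhrs3 and Rbp4, the genes with a co-localized filtered peak, had 0.727, 0.815 and 0.650, against a median of 0.549 over all genes. RXRα reads at the start did not follow this order throughout, since Rdh10 and Aldh1a2 had 42 and 22 reads and Aldh1a1 had 67. Rbp4, Dhrs3 and Cyp26a1, with the most RXRα reads (235, 204 and 95), were all above that median, as was Lrat (0.738) with 20 reads. Cyp26b1 and Crabp2 (0.486), both below it, had the fewest, 10 and 3. A link between CpG content and RXRα was not tested.

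Among 48 other genes of the retinoid pathway, 32 had a filtered RARα peak within 10 kb of the start, 33 an RXRα region and 21 a co-localized peak. Over all genes, these shares were 52.2%, 39.8% and 23.5%, as given above. For storage, uptake and plasma transport, 6 of 11 genes had a co-localized peak, for ester hydrolysis 3 of 7, for retinol oxidation and retinal reduction 7 of 17 and for retinal oxidation 3 of 5. The group for carotenoid cleavage (Bcmo1, Bco2 and Isx) had 1 of 3. That for retinoic acid binding and breakdown (Crabp1, Cyp26c1, Cyp2c39, Fabp5 and Rlbp1) had 1 of 5. These labels are broad and need not describe every gene listed under them. The median of the highest RXRα ratio within 10 kb was 52.7 over the 48 genes, 23.2 over the 9 genes and 14.9 over all protein-coding genes. Rdh1 and Rdh9 start 66 bp apart and share their values.

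The highest RXRα ratio among genes with a co-localized peak was at Aox3 (207), an aldehyde oxidase, followed by 1300002K09Rik (197), a retinol-binding protein receptor of the liver. Next were Lipe (169), the hormone-sensitive lipase, Adh5 (99.6), an alcohol dehydrogenase, Aldh8a1 (92.9), a retinal dehydrogenase, and Retsat (91.3), a retinol saturase. These ratios are those of the highest bin within 10 kb and need not lie on the co-localized peak. At Aox3, the co-localized RARα peak had a score of 55, lay 11 bp after the start and had an RXRα enrichment of 8.30. At Lipe, a RARα peak with a score of 36 lay 2824 bp after the start with an RXRα enrichment of 55.9, and at 1300002K09Rik a peak with a score of 28 lay 3274 bp after the start with an enrichment of 44.3. The values at Lipe and 1300002K09Rik, unlike that at Aox3, exceeded the enrichment at any filtered peak of the 9 genes, of which the highest was 24.4 at Rbp4. At Retsat the RARα score was higher, 119, and the RXRα enrichment was 11.3.

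**Figure D5:**
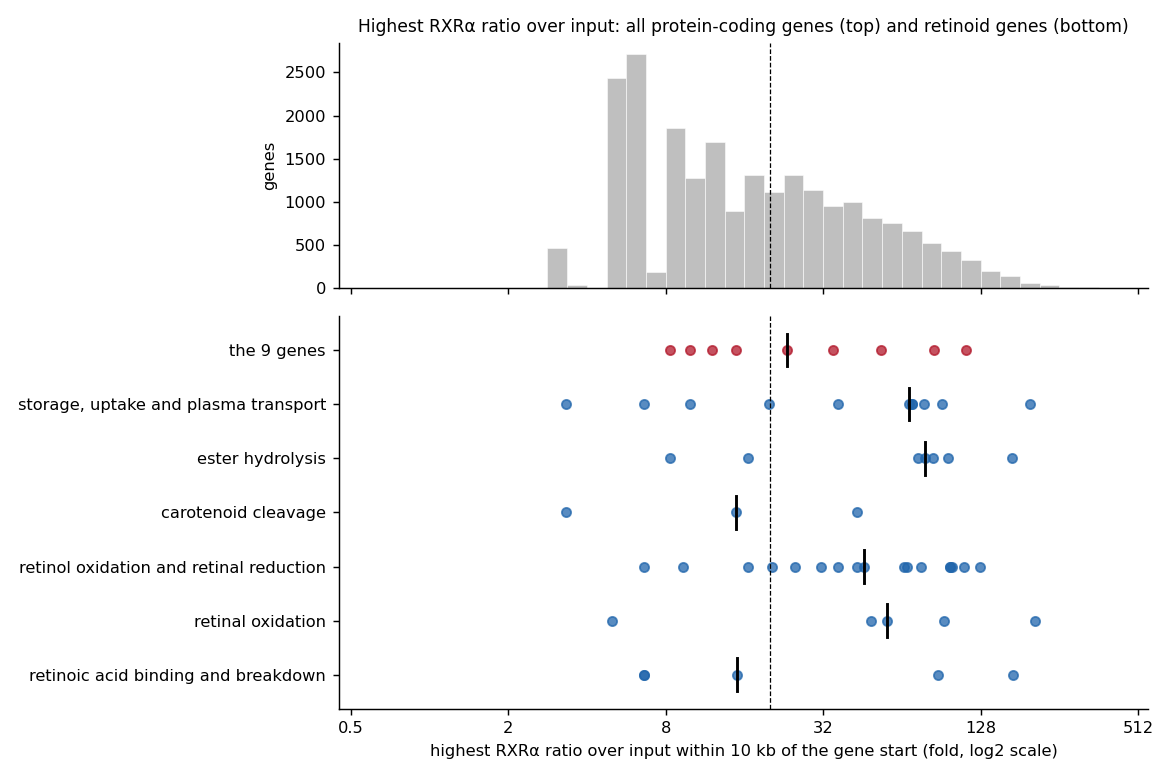
Highest RXRα ratio over input within 10 kb of the gene start (fold, log2 scale), as a histogram over 22367 protein-coding genes (top) and as points for the 9 genes and for 48 other retinoid genes by role (bottom), with medians as black bars and the 20-fold threshold as a dashed line. The 9 genes range from 8.30 to 113 around a median of 23.2, and the groups for ester hydrolysis and for storage, uptake and transport have medians of 78.5 and 68.0.

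Markers of the cells in liver were examined for the same signals. A co-localized peak was found within 10 kb of the start of 7 of 8 hepatocyte markers, the exception being Hnf4a. It was found at 0 of 7 stellate cell markers (Lrat among them), 0 of 6 Kupffer cell markers, 0 of 5 endothelial markers and 0 of 6 muscle and neuron genes. RXRα regions lay near 8 of 8, 2 of 7, 1 of 6, 3 of 5 and 1 of 6 of these genes. Filtered RARα peaks lay near 7 of 8, 2 of 7, 0 of 6, 4 of 5 and 1 of 6, in the same order. Over all genes, the shares were 23.5% for co-localized peaks, 39.8% for RXRα regions and 52.2% for filtered RARα peaks. Of the 9 genes, Rbp4, which hepatocytes express, had a co-localized filtered peak, as did Cyp26a1 and Dhrs3. Cyp26b1, Rdh10, Lrat, Crabp2, Aldh1a1 and Aldh1a2 had none. Lrat had a RARα peak near the filter and no RXRα region. The part of cell type in these differences was not tested.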

How the data were processed

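Livers of male wild type C57BL/6 mice were used for RXRα, RARα and input ChIP-seq, with 1 library each, and samples were grouped by the antibody named in their labels. The study aligned reads with Bowtie and called RARα peaks with MACS, and its processing notes also name CASAVA 1.4. The methods name mm10 for the alignment, whereas the labels and file headers name mm9, which was used for coordinates, genes and sequence. The authors deposited a signal for RXRα and input, as whole-number read coverage of bins of 32 bp, and a score and a false discovery rate in percent for each RARα peak. The study kept scores greater than 20 and names a cut-off of 20 times input, but whether the score is that fold is not stated, and the percent values were not used. In both tracks 22 of 22 chromosome totals were multiples of 5 bins, so 1 read covers 5 bins. Mitochondrial reads were 0.261% of RXRα and 3.64% of input.

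The values of 20 for the score, 20-fold over input, 10 kb and 25% overlap were taken from the study. It set them for called peaks. Here no peaks were called for RXRα, and applying the fold to single bins, the floor at the genome mean, the joining of bins and the overlap as a share of the narrower feature were choices of the re-analysis. Tracks were scaled to equal totals. Intervals were exact at the 95% level. Scripts ran in Python 3.11.15 with scipy 1.17.1, pysam 0.24.0, numpy 2.4.6 and pandas 2.3.3, and the functions were tested on simulated tracks and sequences. No test between libraries was made, since each group had 1 library. The 9 genes, the pathway and marker lists and the naming rule (all 9 genes, the 6 other pathway genes with a co-localized peak and the highest RXRα ratio, and genes nearest to a peak) were chosen with earlier results of these data known. The genes named beside them, Cyp26c1, Rdh1, Rdh9 and Hnf4a, were named after their values were seen. The genes of the carotenoid cleavage group and of the retinoic acid binding and breakdown group were listed in full. Alternatives covered thresholds, windows, input, joining and repeat search.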

Additional observations from a re-analysis of the deposited data

How the results depend on the processing

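Counts of genes moved by more than 1.5 times under few of the settings tried. With a RARα score greater than 50, 2 genes had a peak and 1 a co-localized one, instead of 8 and 3. With RXRα at 10 times input 5 genes had a co-localized peak, and at 5 times 7. The shares of all protein-coding genes at these other thresholds are not given here. The counts therefore show only how the calls moved and cannot be compared with a background. The median RXRα enrichment at the gene start was 1.94 with 5 kb on each side instead of 3.85 with 1 kb, where the longer window adds bases far from the start. The median RXRα enrichment at the filtered peaks was 4.88 without those of Rbp4 instead of 2.79. The other 33 counts and medians stayed within 1.5 times. Of the enrichments of single genes at their starts, 8 left the counting interval and 28 did not. With 5 kb on each side, Rbp4 went from 18.1 to 3.71, Dhrs3 from 8.34 to 5.24, Rdh10 from 4.49 to 1.94, Aldh1a2 from 2.90 to 1.31 and Lrat from 2.69 to 0.825, so that Cyp26a1 was highest at 9.28. With 250 bp, Cyp26a1 went from 6.87 to 14.4, Rdh10 to 2.0 and Crabp2 from 0.333 to 0. The settings included 2 that were chosen after seeing the data, leaving out the peaks of Rbp4 and centering the repeat search on the bin with the most RXRα reads. No paired analysis was possible because each group had 1 library, and none could be left out. The limits are the single library per antibody and the use of RARα as a list of scored peaks without a read track. Further limits are input counts of 0 in many bins of high ratio and the assignment of peaks to genes by distance.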
